A study of Mus musculus with 6 samples.

Results

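The genes described here are those of the two-cell-like state in mouse embryonic stem (ES) cells: the Zscan4, Tcstv, Tdpoz and Usp17l (Dub) families and the single genes Zfp352, Gm397, AF067061, BB287469 and Tmem92. They were picked by a rule on gene name and description in the scanner files, written with earlier results of these data known, and the rule found 8 gene names with 15 probes among the 27962 gene names and 41174 probes of the array. AF067061, BB287469 and Tmem92 had no probe under those names. Under their current RefSeq symbols the genes found are Zscan4c (Gm397 in the files), Tcstv1, Tcstv3, Usp17la (Dub1), Usp17lb (Dub1a), Usp17lc (Dub2), Tdpoz1 and Zfp352. RNA came from cultured ES cells with a genetic background given as F1 from 129 and C57BL/6. The control siRNA group had a scrambled siRNA and the BRG1 siRNA group an siRNA against BRG1, each for 48 h, with 3 single-colour arrays hybridised per group. Nothing in the labels says whether replicates were grown separately, so every p-value rests on the spread of these 6 arrays, and that spread may be technical.

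In a culture of ES cells, few cells at any time pass through a transient state with features of the 2-cell embryo. These cells switch on genes that are otherwise active only around the start of embryonic transcription, with the Zscan4 cluster as its usual marker, and the transcription factor DUX is a known driver. BRG1, encoded by Smarca4, is the motor subunit of the SWI/SNF chromatin remodelling complexes. The arrays read RNA from whole cultures, in which more cells in the state and more RNA per cell cannot be told apart.

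The probes are designed 60-base sequences, and 3 of them are shown first because probes named for Tcstv1 and for Tcstv3 lie on one another. In the mm7 build of the files they sit on the minus strand of an unplaced sequence, Un_random, at 304720 to 304834, and the capital letter marks the base at which the overlapping stretches differ.
Tcstv3 A_52_P165856: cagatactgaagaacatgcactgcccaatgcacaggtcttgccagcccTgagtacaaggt
Tcstv1 A_52_P66425: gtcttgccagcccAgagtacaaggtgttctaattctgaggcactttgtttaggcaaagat
Tcstv1 A_51_P481768: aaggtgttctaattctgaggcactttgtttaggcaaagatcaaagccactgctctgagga
The last 25 bases of A_52_P165856 match the first 25 of A_52_P66425 except for 1 base (A14T, counted from the 5′ end of A_52_P66425). A_52_P66425 and A_51_P481768 share 40 bases without a difference. The other Tcstv1 probe, A_51_P481777 (918057 to 918116), and the other Tcstv3 probe, A_51_P143200 (917863 to 917922), lie near each other elsewhere on Un_random. The names on these 5 probes therefore do not give separate readings of Tcstv1 and Tcstv3.

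The 2 probes for Zscan4c lie on chromosome 7 of mm7, plus strand, at 9713271 to 9713330 (A_52_P302671) and 9711998 to 9712057 (A_52_P363843). They are shown because they carried the largest changes among the tested probes of these genes.
Zscan4c A_52_P302671: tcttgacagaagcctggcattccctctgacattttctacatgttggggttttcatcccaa
Zscan4c A_52_P363843: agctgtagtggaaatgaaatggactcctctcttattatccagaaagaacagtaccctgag
They share no stretch of 20 bases or more with each other or with another member probe. No probe outside the member genes shared an exact 20-base stretch with any of the 15. RefSeq lists 9 Zscan4 entries in the GRCm38.p6 assembly, of which 4 are protein coding and 5 are pseudogenes of either kind. The probes were not compared with the sequences of these copies, so the name Zscan4c on a probe may not separate it from them. All probes are placed by coordinate only, since exons, introns and UTRs of mm7 were not analysed here.

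Smarca4, the target of the siRNA, was lower on every BRG1 siRNA array for all 3 of its probes, with 54.7%, 65.8% and 66.2% of the control signal left (limma adjusted p = 0.00181, 0.00455 and 0.00862). With slide as a block the last 2 of these kept a similar size (log2 -0.54 and -0.53, against -0.60 and -0.59) and no longer passed (adjusted p = 0.0506 and 0.0785). With spike-in scaling they were -0.40 and -0.39 and did not pass either (adjusted p = 0.0505 and 0.0552). All 9 ES cell markers found on the array were well above background on all 6 arrays, and 3 rose and 1 fell. Nanog rose by 0.41 (log2, adjusted p = 0.0163) and Pou5f1 fell by 0.33 (adjusted p = 0.0241), while Sox2 (-0.16, adjusted p = 0.063) and Zfp42 (0.01, adjusted p = 0.902) did not pass. Neither Nanog nor Pou5f1 passed with slide as a block (0.44 and -0.24, adjusted p = 0.0883 and 0.158). The share of spots well above background ran from 64.8% to 75.3% on control arrays and from 60.9% to 70.9% on BRG1 siRNA arrays. Slide 2 carried only BRG1 siRNA replicates 2 and 3, and the other 4 arrays shared slide 1. A fit with slide as a block therefore takes its value from slide 1, which had BRG1 siRNA replicate 1 and all controls. Over the whole array 5154 of 26258 tested probes passed an adjusted p of 0.05 (19.6%), of which 2259 rose (8.60%) and 2895 fell (11.0%). With slide as a block the total was 1267.

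Of the 15 member probes, 8 were well above background on all 6 arrays and were tested, and 7 were too dim for the test. Of the 8, 6 rose with BRG1 siRNA, 0 fell (0 also at an unadjusted p of 0.05) and 2 did not pass the test, against 8.60% raised among all tested probes. The 6 probes carry the names Zscan4c, Usp17la, Tcstv1 and Tcstv3. They are not 6 independent readings, since probes named for Tcstv1 and Tcstv3 overlap and several probes share a name. The median log2 change of the 8 probes was 0.49, beside -0.03 over all tested probes. BRG1 siRNA and control arrays did not overlap for any of the 6 raised probes. Among all tested probes the groups did not overlap for 41.6% in either direction, and for 18.5% with BRG1 siRNA higher. Every value below is a spot's signal as a percentage of the 75th percentile of its array, and fold changes and tests are on the log2 scale of the same values.

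**Figure D1:**
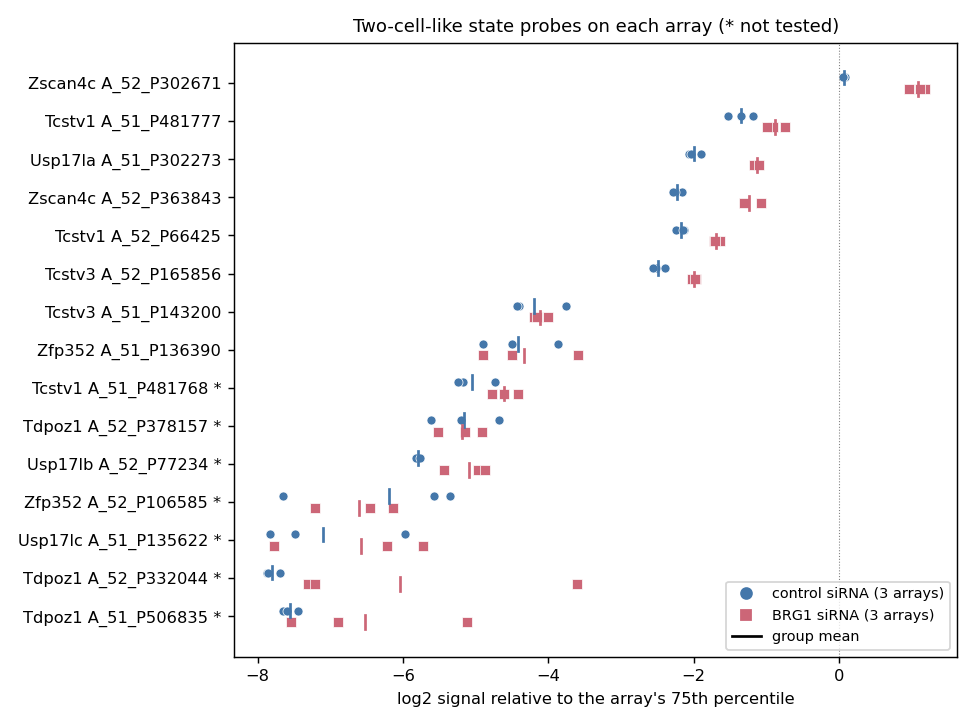
Log2 signal of the 15 member probes scaled to the array's 75th percentile (x axis), with circles for the 3 control siRNA arrays, squares for the 3 BRG1 siRNA arrays and bars for group means; an asterisk marks the 7 probes that were not tested. The groups are apart for both Zscan4c probes, the Usp17la probe and 3 of the Tcstv probes, and mixed for both Zfp352 probes. Among the untested probes they are also apart for Usp17lb and for Tdpoz1 A_52_P332044.

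Zscan4c encodes a zinc finger protein with a SCAN domain, needed for telomere maintenance in ES cells. The signal of both probes under its name, which may read other Zscan4 copies, rose about 2-fold. Probe A_52_P302671 read 106%, 104% and 104% on the control arrays, in replicate order, and 226%, 217% and 195% on the BRG1 siRNA arrays. The control arrays lay within a narrow band, and all 3 BRG1 siRNA arrays were far above it. On the log2 scale the level went from 0.065 ± 0.014 to 1.08 ± 0.11 (SD, n = 3 each), a 2.03-fold rise (log2 1.02 ± 0.07 SE, limma adjusted p = 0.00174). Probe A_52_P363843 read 22.3%, 21.0% and 20.5% on control arrays and 47.3%, 40.4% and 40.3% on BRG1 siRNA arrays. Its rise was 2.00-fold (log2 1.00 ± 0.08 SE, adjusted p = 0.00234). The 95% intervals of the rises in these separate probes, 0.86 to 1.18 and 0.81 to 1.20 (log2), nearly coincide. Of all 26258 tested probes, 41 rose at least 2-fold with a call (0.156%), and both Zscan4c probes were among them, at ranks 51 and 58 by size of rise whether called or not. With slide as a block the rises were 1.11 and 1.16 (log2, adjusted p = 0.0244 for each).

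**Figure D2:**
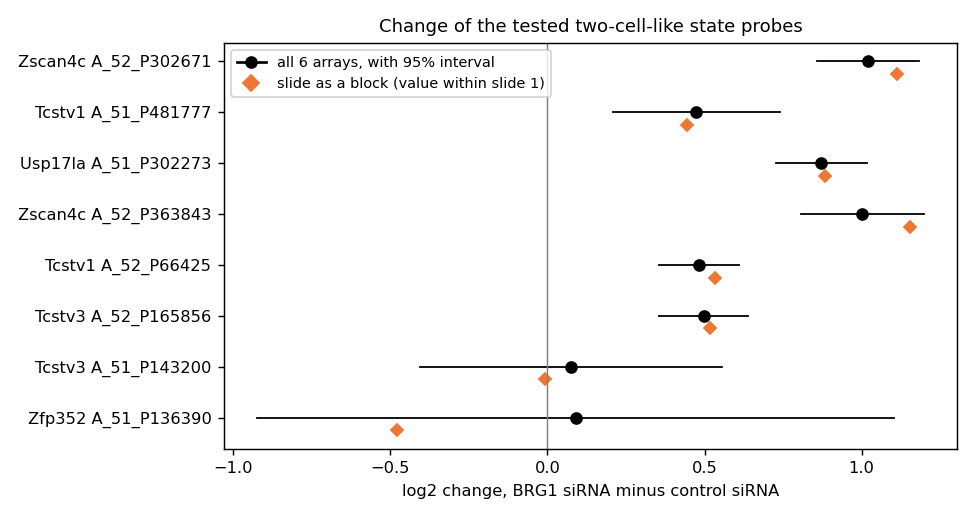
Log2 change of the 8 tested member probes, BRG1 siRNA minus control siRNA (x axis), with a circle for the fit to all 6 arrays, a line for its 95% interval and a diamond for the value with slide as a block. The intervals of both Zscan4c probes and the Usp17la probe start above 0.7, those of 3 Tcstv probes lie above 0, and those of A_51_P143200 and A_51_P136390 hold 0.

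Usp17la, formerly Dub1, belongs to a family of small deubiquitinating enzymes first known from cytokine-stimulated blood cells, and it rose as well. Its probe A_51_P302273, at 100918944 to 100919002 on the plus strand of chromosome 7 (mm7), read 26.8%, 23.9% and 24.4% on control arrays and 46.1%, 44.6% and 46.6% on BRG1 siRNA arrays. The groups were far apart, and the BRG1 siRNA arrays differed among themselves by less than the control arrays did. The rise was 1.83-fold (log2 0.87 ± 0.06 SE, adjusted p = 0.00181) and 0.88 with slide as a block (adjusted p = 0.0298).

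The probes of its relatives were too dim for the test. Usp17lb was well above background on 0 control and 2 BRG1 siRNA arrays, with 1.82%, 1.76% and 1.84% on controls and 3.20%, 2.32% and 3.42% on BRG1 siRNA arrays. These groups did not overlap, and in a fit without a filter on dim probes the difference was 0.70 (log2, 95% interval 0.29 to 1.11) and did not pass (adjusted p = 0.0855). Usp17lc was not well above background on any array, and its control values of 0.556%, 1.59% and 0.440% overlapped its BRG1 siRNA values of 0.457%, 1.90% and 1.34%. Blood cell markers are given beside this family: of 6 tested, 1 rose (Cd68, 1.39-fold, a gene chosen after its values were seen) and 0 fell, where 1 was higher and 2 were lower at an unadjusted p of 0.05. Over all tested probes 8.60% rose, and Cd68 did not pass with slide as a block (0.49, adjusted p = 0.0567). The summed signal of 9 blood markers was 72.2% to 86.7% on control and 81.6% to 95.3% on BRG1 siRNA arrays. Cd68 alone read 37.7% to 42.6% on control and 54.3% to 55.5% on BRG1 siRNA arrays, and the other 8 summed to 34.0% to 44.1% and 26.1% to 40.8%. The groups overlapped for the whole sum and for the other 8, and only Cd68 was apart and higher. The pan-leukocyte gene Ptprc was well above background on 1 control array and 0 BRG1 siRNA arrays. The part of blood cells in the Usp17la result was not tested.

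Tcstv1 and Tcstv3 are named for variable transcripts of the 2-cell stage, and their products are known to support telomere length in ES cells. Of 4 tested probes, 3 rose by similar amounts. Tcstv1 probe A_52_P66425 read 22.8%, 21.1% and 22.6% on control arrays and 32.1%, 30.3% and 30.6% on BRG1 siRNA arrays, a 1.40-fold rise (log2 0.48 ± 0.05 SE, adjusted p = 0.00445). Tcstv3 probe A_52_P165856 read 17.5%, 17.0% and 19.1% on control arrays and 25.5%, 24.7% and 25.3% on BRG1 siRNA arrays, a 1.41-fold rise (log2 0.50 ± 0.06 SE, adjusted p = 0.00534). In both, the lowest BRG1 siRNA array was well above the highest control array. These are the probes shown above that share 25 bases with 1 difference, so their like rises are not 2 independent readings.

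Tcstv1 probe A_51_P481777, from the second site, read 44.0%, 34.8% and 39.2% on control arrays and 53.3%, 50.5% and 59.8% on BRG1 siRNA arrays. The groups did not overlap, but both were spread more widely than for the overlapping probes. The rise was 1.39-fold (log2 0.47 ± 0.11 SE, adjusted p = 0.0329). It no longer passed when slide was a block (0.44, adjusted p = 0.173), with no filter on dim probes (adjusted p = 0.0996) and without any array except control replicate 1. The call for A_52_P165856 was also lost with slide as a block, at the same size (0.52, adjusted p = 0.0503), and that for A_52_P66425 was not (0.53, adjusted p = 0.038).

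The remaining Tcstv probes are dimmer. Tcstv3 probe A_51_P143200 read 7.42%, 4.72% and 4.65% on control arrays and 5.44%, 5.63% and 6.24% on BRG1 siRNA arrays. Control replicate 1 was above every BRG1 siRNA array, and the groups overlapped. The difference was 0.08 (log2, 95% interval -0.40 to 0.56, adjusted p = 0.812), an interval that also holds the 0.50 seen with the other Tcstv3 probe. Tcstv1 probe A_51_P481768 was well above background on 2 arrays of each group and was not tested, with 3.75%, 2.76% and 2.64% on controls and 3.64%, 4.10% and 4.67% on BRG1 siRNA arrays. Without the filter its difference was 0.45 (log2, adjusted p = 0.24). AF067063, whose name is close to that of the absent AF067061 and which was chosen after its values were seen, has 2 tested probes on Un_random that did not pass (log2 -0.06 and 0.22, adjusted p = 0.694 and 0.305).

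Zfp352, a zinc finger gene active in the 2-cell embryo, and Tdpoz1, a member of a family with TRAF-like and POZ domains, had no probe past the threshold. Zfp352 probe A_51_P136390, at 89617872 to 89617931 on chromosome 4 of mm7, read 6.87%, 3.34% and 4.43% on control arrays and 3.35%, 4.43% and 8.27% on BRG1 siRNA arrays. The groups overlapped throughout, and the highest array of each group, control replicate 1 and BRG1 siRNA replicate 3, was also the one with the largest share of spots well above background in its group. Whether this share bears on the Zfp352 values was not tested. The difference was 0.09 (log2, 95% interval -0.92 to 1.10, adjusted p = 0.9), wide enough to hold a change of the size seen for Zscan4c in A_52_P302671. Its second probe was well above background on 1 control array and 0 BRG1 siRNA arrays, with values of 0.498% to 2.45%.

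Tdpoz1 has 3 probes on chromosome 3 of mm7 between 93771305 and 93772881, none of which could be tested. A_52_P378157 was well above background on 2 arrays of each group, with 3.91%, 2.05% and 2.72% on controls and 2.83%, 2.18% and 3.32% on BRG1 siRNA arrays. A_52_P332044 read 0.427%, 0.483% and 0.433% on controls and 8.20%, 0.634% and 0.677% on BRG1 siRNA arrays. Its groups did not overlap, and a single array, BRG1 siRNA replicate 1, set its mean. A_51_P506835 read 0.498% to 0.577% on controls and 0.537%, 0.839% and 2.87% on BRG1 siRNA arrays, with replicate 3 the high one. The high array differed between these probes of 1 gene.

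**Figure D3:**
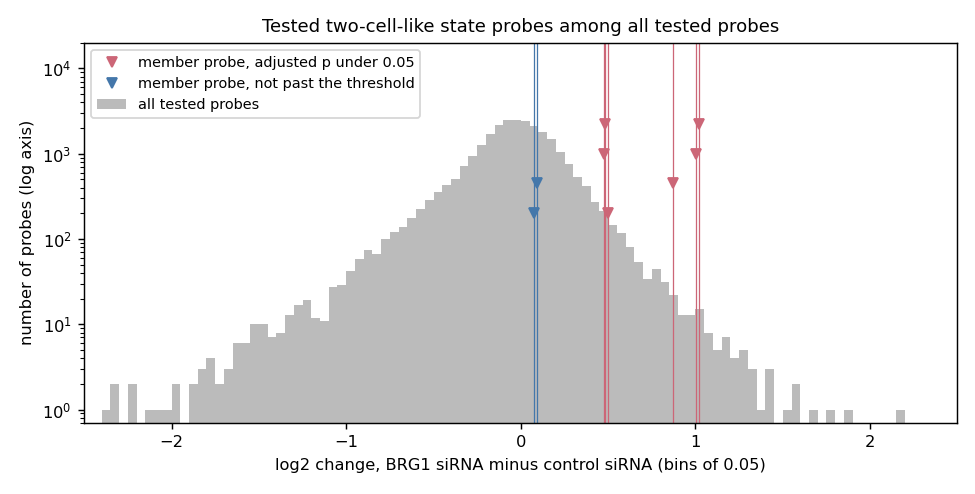
Number of tested probes (y axis, log scale) in bins of 0.05 of the log2 change, BRG1 siRNA minus control siRNA (x axis); lines with triangles mark the 8 tested member probes, and the height of a triangle carries no value. The 2 probes that did not pass lie at 0.08 and 0.09, inside the bulk of the distribution, and the 6 raised probes lie at 0.47 to 1.02, where the 90th percentile of all tested probes is 0.26.

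The promoters of the Zscan4 genes are shown next, since the probes may read several copies of the cluster. RefSeq's promoter table (GRCm38.p6, 250 bases before to 50 after each annotated start) holds Zscan4b, Zscan4c, Zscan4d and Zscan4f, besides Zfp352, Tdpoz1, Usp17la, Usp17lb and Usp17lc. The stretches below begin 20 bases before the letters TATAAA, given in capitals, and are written in the direction of transcription. They lie on chromosome 7 at 10905022 to 10905101 (Zscan4b, minus strand), 11005671 to 11005750 (Zscan4c, plus), 11166154 to 11166233 (Zscan4d, minus) and 11397864 to 11397943 (Zscan4f, plus).
Zscan4b: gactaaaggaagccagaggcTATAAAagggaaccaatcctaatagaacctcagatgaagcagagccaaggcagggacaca
Zscan4c: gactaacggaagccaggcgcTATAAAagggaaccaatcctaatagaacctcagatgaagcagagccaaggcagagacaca
Zscan4d: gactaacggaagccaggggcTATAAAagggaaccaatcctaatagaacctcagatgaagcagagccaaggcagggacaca
Zscan4f: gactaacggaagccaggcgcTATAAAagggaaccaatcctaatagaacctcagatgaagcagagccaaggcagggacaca
Over these 80 bases Zscan4c differed from Zscan4f at 1 base, from Zscan4d at 2 and from Zscan4b at 4. Over the whole 300-base promoters, aligned end to end, identity between pairs ran from 77.5% (Zscan4d and Zscan4f) to 95.7% (Zscan4b and Zscan4f). Gaps and unmatched ends count as differences in these values. TATAAA begins at base 220 of the promoter in Zscan4b and Zscan4f, 197 in Zscan4c and 186 in Zscan4d. Except between Zscan4b and Zscan4f, the promoters are therefore shifted against each other, which lowers their identity. All 4 hold TATAAA followed by CCAAT 12 bases on. Of the 32851 promoters of the table, 13.6% hold TATAAA and 37.4% hold CCAAT on either strand. These shares count each motif alone and anywhere in the promoter, and the share with the pair at this spacing was not counted. The 4 promoters are close copies and not separate occurrences. Usp17lb and Usp17lc also hold TATAAA, and Usp17la, Tdpoz1 and Zfp352 do not within their 300 bases.

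Other genes tied to the state were taken from lists, each gene by its brightest probe. Of 26 further genes described in two-cell-like cells, 14 were on the array under their names and 9 were tested, of which 2 rose and 0 fell (0 at an unadjusted p of 0.05), with a median change of -0.02, where 8.60% of all tested probes rose and 11.0% fell. Zscan5b, a SCAN domain zinc finger gene outside the Zscan4 cluster, rose 2.39-fold (log2 1.26 ± 0.05 SE, adjusted p = 0.00117). Its log2 signal was -3.86, -3.81 and -3.94 on control arrays and -2.56, -2.62 and -2.66 on BRG1 siRNA arrays, with no overlap. Snai1, better known as a repressor of epithelial genes, rose 1.40-fold (adjusted p = 0.00552), but not when slide was a block (0.45, adjusted p = 0.0574).

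Of 11 listed activators of the state, 8 were on the array and 6 were tested, with 3 raised and 1 lowered (8.60% and 11.0% over the array) and a median of 0.05. Trp53, which encodes p53, a known inducer of Dux, rose 1.44-fold (log2 0.53 ± 0.13 SE, adjusted p = 0.0405). Dppa2, a DNA-binding factor that acts upstream of Dux, rose by 0.19 (log2, adjusted p = 0.0265) and Gata2, a zinc finger transcription factor, by 0.17 (adjusted p = 0.0493). Nelfa, a subunit of the negative elongation factor, fell by 0.19 (adjusted p = 0.024). The sign for Nelfa turned to 0.02 with spike-in scaling. With slide as a block none of the 6 passed (2 higher and 1 lower at an unadjusted p of 0.05). None passed either with median scaling, with no filter on dim probes or with the replicate block. The same held without any one of control siRNA replicates 1, 2 and 3 and BRG1 siRNA replicates 1 and 2.

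Of 40 listed factors that restrain the state, 39 were on the array and tested, with 7 raised, 2 lowered and a median of 0.01. The raised genes included Myc (log2 0.45 ± 0.08 SE, adjusted p = 0.0184), Lin28a, an RNA-binding protein (0.34, adjusted p = 0.0313), L3mbtl2, a Polycomb-like chromatin protein (0.31, adjusted p = 0.0498), and Trim28, the KAP1 corepressor of retroviral elements (0.29, adjusted p = 0.0143). The lowered genes, named after their values were seen, were Smchd1, a chromatin silencer (-0.24, adjusted p = 0.018), and Kat5, the TIP60 acetyltransferase (-0.23, adjusted p = 0.0461). These 7 and 2 of 39 compare with 8.60% raised and 11.0% lowered over the array. With slide as a block none of the 39 passed (9 higher and 6 lower at an unadjusted p of 0.05), and with spike-in scaling, which moved the median of all tested probes to 0.18, 13 rose and 0 fell. Median scaling gave 1 and 0, the replicate block also 1 and 0, and no filter on dim probes 0 and 0. The counts were 0 to 2 raised and 0 lowered without any one array except BRG1 siRNA replicate 3, where they were 8 and 5. Array weights gave 10 raised and 10 lowered, and the trend and robust settings of eBayes gave 10 and 7.

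Markers of oocytes and of fibroblasts were measured beside these genes. Of 9 listed oocyte markers 8 were on the array and 3 were tested, of which 1 rose, the zona pellucida gene Zp3 (1.43-fold, adjusted p = 0.00502, chosen after its values were seen), and 0 fell (1 at an unadjusted p of 0.05). The summed oocyte marker signal was 109% to 121% on control and 142% to 155% on BRG1 siRNA arrays, with Zp3 alone at 85.8% to 87.6% and 116% to 131% and the other 7 at 23.1% to 33.5% and 22.8% to 26.5%. Bmp15 and Zp2 were well above background on 1 control array each and 0 BRG1 siRNA arrays and Oosp1 on 0 arrays. Nlrp5 went the other way, with 0 control and 2 BRG1 siRNA arrays, and Figla had 2 arrays in each group. Of 10 tested fibroblast markers 5 fell, where 11.0% of all tested probes fell, and 0 rose (0 at an unadjusted p of 0.05). Only 2 fell with slide as a block, median scaling, spike-in scaling, no filter or without control siRNA replicate 3, and 3 without control siRNA replicate 2 or BRG1 siRNA replicate 1 or 2. Their summed signal, over 11 genes, was 862% to 912% on control and 668% to 743% on BRG1 siRNA arrays. The part of these cells in the results above was not tested.

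**Figure D4:**
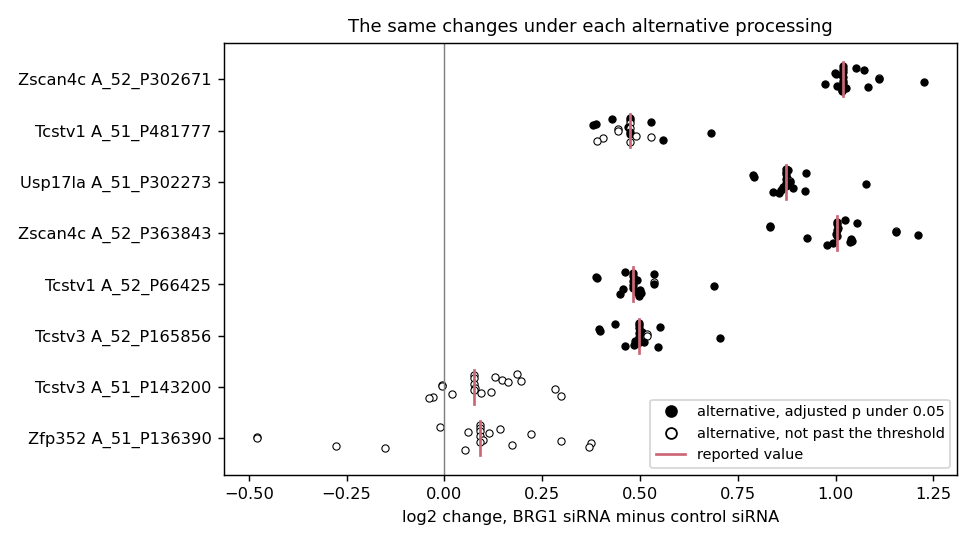
Log2 change of each tested member probe, BRG1 siRNA minus control siRNA (x axis), under every alternative processing, filled where the adjusted p was under 0.05 and open where it was not, with a bar at the reported value. The Zscan4c points run from 0.83 to 1.23 and the Usp17la points from 0.79 to 1.08, and the points of Zfp352 lie on both sides of 0; points for slide 1 alone, all open, have the same value as those for slide as a block and can be hidden by them.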

How the data were processed

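Mouse ES cell RNA was hybridised to 6 Agilent arrays in 1 colour, grouped by the labels. Per the labels' protocols, Cy3-labelled cRNA was made from 500 ng of total RNA. Spot intensity in the deposited scanner files is linear and comes from Agilent Feature Extraction 9.5.3.1 on design 014868, per the file headers (version 9.5 per the submitters' processing notes). The processed signal was background-subtracted and detrended within each array by that software and was not normalized between arrays. Flags of 0 or 1, deposited beside the signals by the authors, mark spots above background, saturated or outlying.

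Each array was scaled to the 75th percentile of its processed signals and put on the log2 scale. The 1639 control spots of 45018 and outlier spots were left out, and spots of a probe averaged. A probe was tested if well above background on every array of a group (26258 probes). Groups were compared per probe with limma 3.58.1 (R 4.3.3; lmFit, eBayes), with two-sided p-values adjusted by Benjamini-Hochberg over all tested probes, at a threshold of 0.05. The text gives every member gene, the 3 Smarca4 probes, Pou5f1, Sox2, Nanog and Zfp42. Of the lists of activators, restraining factors and further genes it gives counts and up to 4 genes per list with the largest change past the threshold. Cd68, Zp3, AF067063, Smchd1 and Kat5 are marked in the text as chosen or named after their values were seen. Ptprc, Bmp15, Zp2, Oosp1, Nlrp5 and Figla, which were not tested, are named outside this rule for their counts of arrays well above background. Members and lists were chosen with earlier results of these data known. Symbols were matched by RefSeq accession (GRCm38.p6, names only). Alternatives were normexp, quantile, median or spike-in scaling, other filters and probe summaries, slide or replicate blocks, other eBayes settings and each array left out. Precision is limited by how few arrays there are. The fit was tested on simulated data. It recovered 32% of 50 probes changed 1.25-fold, 44% at 1.5-fold, 86% at 2-fold and 90% at 4-fold, with 6 unchanged probes called. Far fewer probes were changed there than were called in the data, so recovery here may differ. A change of 1.5-fold or less can thus be missed. Some larger changes can be missed too, since recovery was not complete at 2-fold or 4-fold.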

Additional observations from a re-analysis of the deposited data

How the results depend on the processing

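Over every alternative in which they had a value, both Zscan4c probes, the Usp17la probe and Tcstv1 probe A_52_P66425 kept their direction, and their calls were lost only with slide 1 alone. There a single BRG1 siRNA array, assumed to vary like the controls, faces 3 controls, and 0 of 26258 probes passed (7716 at an unadjusted p of 0.05). The count of raised members was then 0, with 5 members higher at an unadjusted p of 0.05, and it was 3 of 5 tested genes with the mean over probes of a gene name. Slide as a block left 4 raised members. Leaving out 1 array gave 5 to 6 raised and 0 lowered members and a median change of 0.45 to 0.53. The median was 0.39 (0.391 and 0.394) with normexp and the 75th percentile or quantile normalization and 0.70 with spike-in scaling.

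The count over the whole array was 2031 with median scaling, 1856 without a filter, 1267 with slide as a block, 0 with slide 1 alone, 2150 with the replicate block, 2585 with the mean over probes, 9013 with array weights and 1655 to 5709 without 1 array (2930, 2664 and 1655 without control siRNA replicates 1, 2 and 3, and 2548 and 2390 without BRG1 siRNA replicates 1 and 2). The sign of Zfp352 A_51_P136390 turned to -0.48 (-0.478) with slide as a block or slide 1 alone, -0.01 (-0.0111) with array weights, -0.15 without control siRNA replicate 2 and -0.28 without BRG1 siRNA replicate 3 (range without 1 array -0.28 to 0.37). That of Tcstv3 A_51_P143200 turned to -0.0075 (-0.00748) with slide as a block or slide 1 alone and to -0.03 and -0.04 (-0.0288 and -0.0402) without control siRNA replicate 2 or 3 (range without 1 array -0.04 to 0.30). Those of Nelfa and Sox2 turned to 0.02 (0.0172) and 0.05 (0.0477) with spike-in scaling. That of Zfp42 turned to -0.01 (-0.011) with array weights and -0.01 (-0.0112), -0.0048 and -0.01 (-0.0124) without control siRNA replicate 1, BRG1 siRNA replicate 1 or BRG1 siRNA replicate 3 (range without 1 array -0.0124 to 0.054). The cause of these changes was not tested.

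The replicate numbers did not pair the arrays: deviations of arrays with the same number correlated at -0.29, 0.12 and 0.03, and not every array correlated best with its own number. With the replicate block the changes of both Zscan4c probes were 1.02 and 1.00, and the call for Tcstv1 A_51_P481777 was lost (adjusted p = 0.0601). Signal over background limits Tdpoz1, Usp17lb, Usp17lc and the second Zfp352 probe. Among the regulators and further genes named, calls were lost in 1 (Zscan5b) to 13 (Gata2) of 20 alternatives.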
